A study of Mus musculus with 6 samples.

Results

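The genes that carry out V(D)J recombination were examined by name: Rag1 and Rag2, which encode the recombinase, Dntt, which encodes terminal transferase, and the 7 core genes of non-homologous end joining, Xrcc6, Xrcc5, Prkdc, Dclre1c, Xrcc4, Lig4 and Nhej1. Of these 10 genes, 9 are among the 18058 genes of the deposited table and Rag2 is not listed in it. The table holds whole brainstem RNA, snap-frozen at 1 month of age, from 3 wild type mice (WT, C57BL/6J) and 3 mice labelled Rag1-/- (B6.129S7-Rag1tm1Mom/J), each from an independent, uninjected animal. The study compared them to look for transcripts that differ in a brainstem that accepts human glioma cells. The Rag1tm1Mom allele is a targeted germline replacement within the coding exon of Rag1, so every cell of these mice carries it and the mice lack mature T and B cells.

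V(D)J recombination assembles antigen receptor genes in developing lymphocytes. The Rag1 and Rag2 proteins cut the DNA beside receptor gene segments, terminal transferase adds bases to the cut ends, and the end-joining proteins hold, trim and ligate them. The recombinase and terminal transferase are known mainly from lymphoid precursors, whereas end joining repairs broken chromosomes in nearly every cell, including neurons and glia.

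Of the recombination genes, Rag1 alone passed the adjusted test, and it was higher in the Rag1-/- libraries. Its WT level was 0.246 ± 0.137 CPM (gene counts scaled to library size; SD, n = 3), beside 3.18 ± 0.750 CPM (SD, n = 3) under the Rag1-/- label. The Rag1-/- libraries are called the libraries labelled Rag1-/-, or the labelled libraries, and every direction below depends on their label being right. The Rag1 level, a value summed over the gene, is no check of that label. The 7 end-joining genes, measured at 0.755 to 17.6 CPM, differed between the groups by -0.11 to 0.36 on the log2 scale, and none passed. Differences were tested on log2(CPM + 0.1), a scale that understates the change of low transcripts, with limma-trend and Benjamini-Hochberg adjustment over 16762 genes, those averaging 0.1 CPM or more. Of the 9 genes in the table, 8 passed this filter and Dntt did not. With an adjusted p under 0.05, 1 of 8 was called (12.5%), where 8 of all 16762 tested genes, or 0.0477%, were.

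The promoters of the recombination genes varied in base content, also among the end-joining genes. Shown here are the 250 bases before the RefSeq start (GRCm38.p6) of the gene that was called and of the other lymphoid gene in the table, followed by those of the Ku subunits, a pair of housekeeping genes at nearly the same level. Capitals mark each match, on either strand, to 5 short motifs. The CCAAT box was searched by those letters and the GC box by the letters GGGCGG. The letters TATAAA stood for a TATA box, and the E box was taken as CANNTG, where N is any base. The GATA motif was searched as AGATAA, and no match overlapped another. The strand of each was checked against reference transcripts. The Rag1 promoter lies at chr2:101649533-101649782 on the minus strand, that of Dntt at chr19:41029025-41029274, that of Xrcc5 at chr1:72307171-72307420 and that of Xrcc6 at chr15:82016119-82016368, all 3 on the plus strand.
Rag1: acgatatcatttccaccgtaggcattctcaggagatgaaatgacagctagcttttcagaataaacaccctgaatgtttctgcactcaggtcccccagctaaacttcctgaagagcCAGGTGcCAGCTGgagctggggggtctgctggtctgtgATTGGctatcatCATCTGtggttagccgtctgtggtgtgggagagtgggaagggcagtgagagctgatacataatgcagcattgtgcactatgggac
Dntt: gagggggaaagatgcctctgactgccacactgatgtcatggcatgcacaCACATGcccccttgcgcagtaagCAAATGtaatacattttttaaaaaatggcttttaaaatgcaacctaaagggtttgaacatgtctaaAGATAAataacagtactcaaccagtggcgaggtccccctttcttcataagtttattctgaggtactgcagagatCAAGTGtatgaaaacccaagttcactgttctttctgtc
Xrcc5: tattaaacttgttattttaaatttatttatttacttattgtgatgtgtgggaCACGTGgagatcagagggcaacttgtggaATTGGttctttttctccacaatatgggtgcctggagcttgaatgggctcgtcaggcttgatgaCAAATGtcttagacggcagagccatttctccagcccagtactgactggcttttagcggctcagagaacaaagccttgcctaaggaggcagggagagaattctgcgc
Xrcc6: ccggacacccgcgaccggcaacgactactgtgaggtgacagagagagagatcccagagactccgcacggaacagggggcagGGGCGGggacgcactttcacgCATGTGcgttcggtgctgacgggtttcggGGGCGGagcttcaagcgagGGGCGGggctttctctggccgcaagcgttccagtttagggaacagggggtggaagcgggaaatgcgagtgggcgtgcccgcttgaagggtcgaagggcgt

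Of the 10 genes, 9 had a promoter in the RefSeq table and Prkdc did not. The Rag1 promoter held 1 CCAAT box, 3 E boxes and no GC box, with 50.8% G and C and 3 CpG dinucleotides. The Dntt promoter held 3 E boxes and 1 GATA motif, with 41.6% G and C and 2 CpG, and that of Rag2 had 41.2% G and C and 3 CpG. Xrcc6 held 3 GC boxes, with 65.2% G and C and 25 CpG. Xrcc4 also held 3 GC boxes, with 68.0% G and C and 26 CpG, and the alternative starts of Lig4 were highest, with 70.0% and 68.4% G and C and 27 and 28 CpG. Xrcc5 held 5 CpG and no GC box, so the Ku subunits did not share a promoter type. Nhej1 held 2 GC boxes and 1 GATA motif, with 48.4% G and C and 9 CpG. Dclre1c held 1 GC box and 3 CCAAT boxes, with 54.8% G and C and 8 CpG. The median over 32851 promoters of this length was 52.4% G and C and 6 CpG. Such matches are frequent: 33.8% of these promoters held a CCAAT box, 32.7% a GC box, 66.2% an E box, 9.99% a GATA motif and 12.4% a TATA box, the last of which none of the 9 genes' promoters held.

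Depth and tissue were similar but not identical between the groups. From the size of 1 read in low values, the depth was estimated at 34800000 to 46400000 reads in WT and 31600000 to 35100000 in the libraries labelled Rag1-/-, so that 3 reads equal 0.0646 to 0.0862 CPM and 0.0854 to 0.0950 CPM. WT replicates 1 and 2 held Xist at 172 and 177 CPM, against 0.462 to 2.93 CPM in the other 4 libraries, and the Y-linked Ddx3y at 0.283 and 0.215 CPM, against 45.2 to 56.2 CPM. By these genes WT replicates 1 and 2 read as female and the other 4 libraries as male, which the labels used here do not state. Summed neuron markers reached 3037 to 3264 CPM for WT and 2976 to 3161 CPM for the labelled libraries, summed astrocyte markers at 2574 to 2721 and 2745 to 2873 CPM, and summed microglia markers at 144 to 161 and 145 to 158 CPM. The 6 oligodendrocyte markers summed to 18660 to 21780 CPM in WT and 24200 to 25580 CPM in the libraries labelled Rag1-/-, each higher without overlap (3.98% of all tested genes were) and each with an unadjusted p under 0.05 (11.6% of all tested genes), although none passed the adjusted test. The 7 hindbrain position markers, mainly Hox genes, summed to 2.98 CPM in replicate 2 labelled Rag1-/- and to 9.30 to 27.9 CPM in the other 5 libraries, while forebrain markers summed to 2.79 to 3.13 and 2.43 to 3.87 CPM. The part of these differences in the results below was not tested, except where a value is given. In bulk tissue, fewer cells of a type and less RNA per cell cannot be told apart.

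Rag1, the catalytic subunit of the recombinase, was measured in replicates 1, 2 and 3 at 0.236, 0.388 and 0.115 CPM for WT and at 2.60, 4.02 and 2.90 CPM under the Rag1-/- label. The groups did not overlap, and the lowest labelled library lay far above the highest WT library. The step size gives about 10, 18 and 4 reads in WT and 90, 127 and 102 reads in the others, 32 against 319 in all. With counting error alone (95% Poisson intervals), the WT level reached at most 0.613 CPM in any library and the labelled level at least 2.09 CPM. The log2 fold change was 3.30 (standard error 0.31, 95% interval 2.60 to 4.0, adjusted p = 0.0120 by limma-trend), that is 9.83-fold on the scale of CPM + 0.1 with an interval of 6.05 to 16.0. The ratio of the mean CPM was 12.9. By unadjusted p, Rag1 ranked 4 among all tested genes, and 0.0418% of them had a larger absolute log2 fold change. A two-sided exact permutation test of 3 libraries against 3 cannot go below p = 0.1, which Rag1 reached.

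The Rag1 call rested on all 3 labelled libraries. Leaving out replicate 1, 2 or 3 labelled Rag1-/- gave adjusted p of 0.113, 0.0697 and 0.192 with log2 fold changes of 3.42, 3.12 and 3.35, whereas without WT replicate 1, 2 or 3 the adjusted p lay between 0.00276 and 0.0397. Replicate 2, the library with low Hox transcripts, had the highest Rag1 level, and without it the log2 fold change stayed at 3.12. WT replicate 3, which resembled the labelled libraries in Xist and Ddx3y, had the lowest Rag1 level of all, and a term for the 2 libraries with high Xist gave a log2 fold change of 3.91 (adjusted p = 0.00627 by limma-trend). Without WT replicate 3, group and Xist level fall on the same libraries and cannot be told apart.

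**Figure D1:**
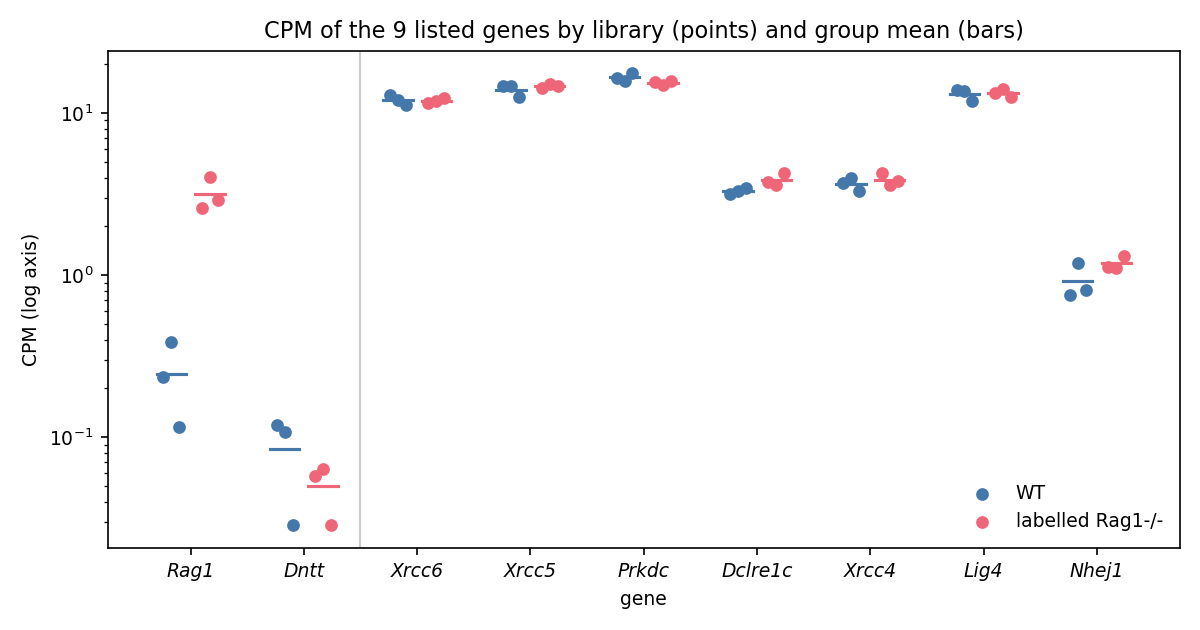
CPM on a log axis for the 9 recombination genes in the deposited table, with 1 point per library (blue, WT; red, labelled Rag1-/-) and a bar at each group's mean; Rag1 and Dntt stand left of the grey line and the 7 end-joining genes right of it. The red Rag1 points, 2.60 to 4.02 CPM, lie above the blue ones, 0.115 to 0.388 CPM, while the groups of most other genes overlap.

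Per transcript length, Rag1 rose from 0.0373 ± 0.0207 CPM per kb in WT to 0.481 ± 0.114 CPM per kb (SD, n = 3), against a reference transcript of 6608 bases. At that level it stood beside Dclre1c, the lowest of the end-joining genes, at 0.546 ± 0.0519 CPM per kb in the same libraries. A value summed over the gene cannot show which part of Rag1 was read. In the reference annotation (GENCODE M21, GRCm38) the single Rag1 transcript has 2 exons, of 80 and 6528 bases, and the second, chr2:101638282-101644809, holds the whole coding sequence of 3120 bases. Reads from the parts of that exon that a targeted allele keeps count toward the gene, so that the value is no check of the deletion itself.

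Rag2, the partner subunit, lies 5752 bases from Rag1 on the opposite strand in the same annotation (chr2:101624718-101632529) and was not analysed here. Dntt, the terminal transferase (chr19:41029275-41059525), was measured at 0.118, 0.108 and 0.0288 CPM in WT and at 0.0579, 0.0635 and 0.0286 CPM in the labelled libraries. These levels stand for 5, 5 and 1 reads and for 2, 2 and 1 reads. The groups overlapped (exact two-sided permutation test, p = 0.3), and a difference was not detectable at this depth.

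Markers of lymphocyte precursors, cells known to express Rag1, were not higher beside it. The list of 10 summed to 15.7 to 17 CPM in WT and 13 to 16.3 CPM in the libraries labelled Rag1-/-, most of it Flt3, a receptor that other cells also carry. Of its 6 tested genes all had negative log2 fold changes, median -0.24, and none passed the test. Il7r, the receptor for interleukin 7, was at 0.732, 0.539 and 0.460 CPM in WT and at 0.260, 0.539 and 0.171 CPM in the labelled libraries (log2 fold change -0.75, adjusted p = 0.441 by limma-trend). Vpreb1, part of the surrogate light chain, was at no more than 0.108 CPM in any library, and Igll1 is not listed. B cell markers summed to 4.67 to 8.21 CPM in WT and 5.41 to 6.43 CPM in the labelled libraries, none of 4 tested passing, with Ms4a1 at the lowest value of the file in all 3 of the latter. Of 11 T cell markers 3 were tested and none passed. Their sums, 658 to 690 and 660 to 701 CPM, are nearly all Thy1, which neurons also express, and Cd2 did not exceed 3 reads in any library.

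The neighbours of Rag1 differed far less than Rag1 did. The genes lay within 662 kb of it except Lrrc4c, Api5, 2810002D19Rik and Ttc17, which lay at -5320 to -7338 kb, by start coordinate. Among the 5 nearest deposited genes on each side, log2 fold changes lay between -0.10 and 0.20, and none had an adjusted p under 0.05 (1 had an unadjusted p under 0.05, where 11.6% of all tested genes did). B230118H07Rik, also called Iftap, has its deposited start coordinate at -77.5 kb from that of Rag1, on the same strand, and 3 of its annotated transcripts begin with an exon of 111 bases that contains the first Rag1 exon. It was at 21.1, 22.4 and 19.2 CPM in WT and at 20.6, 21.3 and 20.0 CPM in the labelled libraries, which overlap (log2 fold change -0.02, turning positive with other scalings). Its deposited span, chr2:101560781-101628986, ends before Rag1 and overlaps 4269 bases of Rag2. Traf6, an adaptor of innate immune signalling whose start coordinate lies 40.2 kb on the other side, was at 17.3, 19.8 and 18.5 CPM in WT and at 18.1, 17.5 and 19.2 CPM in the labelled libraries, again overlapping. Commd9 was the gene with an unadjusted p under 0.05. It was at 24.3, 25.1 and 26.2 CPM in WT and at 30.7, 27.6 and 28.4 CPM in the labelled libraries, higher without overlap (log2 fold change 0.20, standard error 0.06, adjusted p = 0.340 by limma-trend). Trim44 and Api5 were lower without overlap, with log2 fold changes of -0.10 and -0.06 (3.98% of all tested genes were higher and 14.4% lower without overlap), and Prr5l, Ldlrad3, Lrrc4c, 2810002D19Rik and Ttc17 overlapped.

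**Figure D2:**
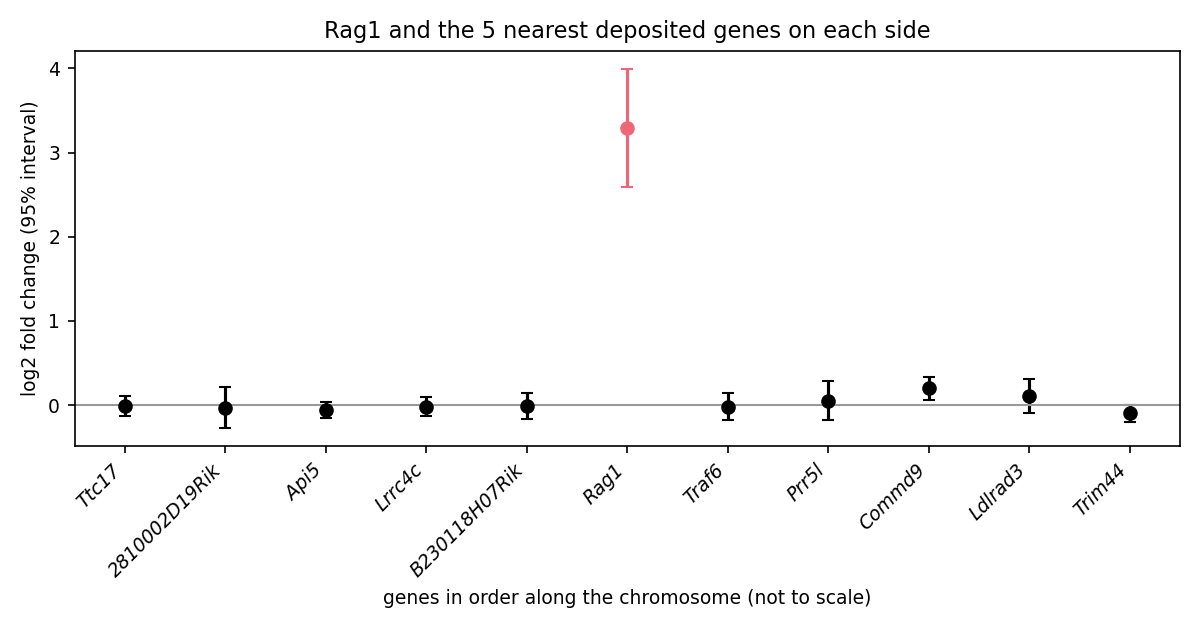
Log2 fold change (labelled Rag1-/- minus WT, of CPM + 0.1) with its 95% interval for Rag1 and the 5 nearest deposited genes on each side, in chromosome order and not to scale. Rag1 stands at 3.30, and the other 10 genes lie between -0.10 and 0.20.

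The genes whose profiles over the 6 libraries lay nearest to that of Rag1 included Apol11b and Hist2h4, on other chromosomes. Likeness was the root mean square difference of log2(CPM + 0.1) after centring each gene, for which the median over all tested genes was 1.72. Apol11b was nearest, at 0.824, with 0.180, 0.156 and 0.374 CPM in WT and 1.54, 1.35 and 1.65 CPM in the labelled libraries (log2 fold change 2.31, adjusted p = 0.0443 by limma-trend). This call was not stable: the adjusted p of Apol11b was 0.0925 with the replicate block and ranged from 0.0126 to 0.331 over the settings tried. It was 0.129 and 0.0700 without WT replicates 1 and 2, 0.00276 without WT replicate 3, and 0.320, 0.183 and 0.339 without replicates 1, 2 and 3 labelled Rag1-/-. Hist2h4, a histone H4 gene whose reads near-identical copies can share, followed at 1.11, with a log2 fold change of 1.16 that did not pass (adjusted p = 0.30 by limma-trend). Since these profiles use the same 6 libraries, this is a description of these libraries.

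The end-joining genes spanned a wide range of levels. Per transcript length, Xrcc6 and Xrcc5 were highest at 5.68 and 5.60 CPM per kb over the 6 libraries, and their order held in only 3 of 6, so they cannot be ranked. Lig4 at 2.63 and Xrcc4 at 2.45 CPM per kb came next, in this order in 5 of 6 libraries. Prkdc at 1.27, Nhej1 at 0.996 and Dclre1c at 0.505 CPM per kb followed, each above the next in 6 of 6 libraries, although Prkdc and Nhej1 were nearly equal in the closest one (ratio 1.01). Dclre1c was above Rag1 in 5 of 6 libraries, with a lowest ratio of 0.830. Rag1 differed so much between the groups that its place depends on them. Dntt was at 0.0317 CPM per kb over the 6 libraries, and Rag1 was above it in 5 of 6 (lowest ratio 0.644), but the WT means of 0.0373 CPM per kb for Rag1 and 0.0399 CPM per kb for Dntt lay within their spread.

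Ku binds broken ends first, as a dimer of Ku70 and Ku80. Xrcc6, which encodes Ku70 (chr15:82016369-82040084), was at 13, 12.1 and 11.2 CPM in WT and at 11.5, 11.8 and 12.4 CPM in the labelled libraries. Xrcc5, which encodes Ku80 (chr1:72307421-72394953), was at 14.6, 14.7 and 12.5 CPM in WT and at 14.3, 15 and 14.6 CPM in the labelled libraries. For each gene the groups overlapped, with WT replicate 3 the lowest library. The log2 fold changes were -0.02 for Xrcc6 (95% interval -0.20 to 0.15, adjusted p = 0.923, sign changing with the scaling) and 0.08 for Xrcc5 (-0.10 to 0.25, adjusted p = 0.723 by limma-trend).

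Prkdc encodes the DNA-dependent protein kinase that Ku recruits, and it activates Artemis, the nuclease encoded by Dclre1c, to open the hairpin ends left by the recombinase. Prkdc (chr16:15637866-15842239) was at 16.6, 15.8 and 17.6 CPM in WT and at 15.6, 14.9 and 15.8 CPM in the labelled libraries. The top labelled library only just reached the lowest WT library (log2 fold change -0.11, 95% interval -0.25 to 0.04, adjusted p = 0.542 by limma-trend). Dclre1c (chr2:3424131-3461116) was at 3.14, 3.28 and 3.43 CPM in WT and at 3.74, 3.57 and 4.28 CPM in the labelled libraries. Here the groups did not overlap, all labelled libraries being higher, but the difference did not pass the test (log2 fold change 0.22, standard error 0.11, 95% interval -0.03 to 0.48, adjusted p = 0.478 by limma-trend). With Rag1 it made 2 of 8 recombination genes higher without overlap, and none was lower, where 3.98% of all tested genes were higher and 14.4% lower without overlap. Dclre1c overlaps Suv39h2 on the other strand, and without stated use of strand their reads cannot be told apart. Suv39h2 was at 1.84, 2.02 and 2.66 CPM in WT and at 2.32, 2.38 and 2.5 CPM in the labelled libraries, which overlap.

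The ligation complex joins the ends. Xrcc4, its scaffold (chr13:89848914-90089608), was at 3.70, 3.96 and 3.31 CPM in WT and at 4.25, 3.61 and 3.79 CPM in the labelled libraries, overlapping (log2 fold change 0.08, 95% interval -0.18 to 0.35, adjusted p = 0.802 by limma-trend). Lig4, the ligase (chr8:9970020-9976323), was at 13.9, 13.7 and 11.8 CPM in WT and at 13.4, 14.0 and 12.6 CPM in the labelled libraries, also overlapping (0.02, -0.17 to 0.21, adjusted p = 0.933 by limma-trend). Nhej1, which encodes the Xrcc4-like factor that bridges ends (chr1:74967346-75046639), was the lowest of the 7 by CPM, with 0.755, 1.18 and 0.805 CPM in WT and 1.13, 1.11 and 1.31 CPM in the labelled libraries. WT replicate 2 lay within the range of the labelled libraries, so the groups overlapped. The Nhej1 log2 fold change of 0.36 was the largest among the end-joining genes and the least precise (95% interval -0.10 to 0.82, adjusted p = 0.519 by limma-trend), at 28 to 55 reads per library.

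The 7 end-joining genes had a median log2 fold change of 0.08, with adjusted p from 0.478 to 0.933, while the median over all tested genes was -0.05. Together their intervals spanned -0.255 to 0.817. These small values moved with the settings. Over the settings tried and with libraries left out, the log2 fold change ranged from 0.00075 to 0.224 for Xrcc5, from 0.015 to 0.222 for Xrcc4, from -0.051 to 0.170 for Lig4, from -0.189 to -0.060 for Prkdc and from 0.194 to 0.540 for Nhej1. The highest values of Xrcc5, Xrcc4 and Lig4 and the lowest of Prkdc came with the term for high Xist, and the lowest of Xrcc5, Xrcc4 and Lig4 without WT replicate 3. A difference of the size seen for Rag1 therefore lies outside the interval of each. Each interval still left room for more than a few percent. On the scale of CPM + 0.1 it reached 1.76-fold for Nhej1, 1.40-fold for Dclre1c and 1.275-fold for Xrcc4.

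**Figure D3:**
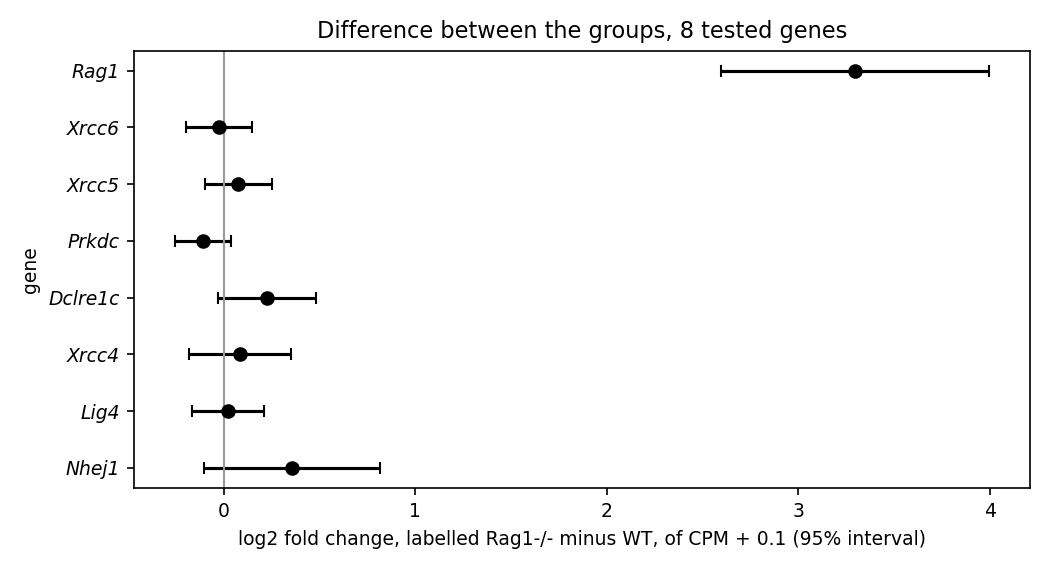
Log2 fold change (labelled Rag1-/- minus WT, of CPM + 0.1) with its 95% interval for the 8 tested recombination genes. The interval of Rag1, 2.60 to 4.0, lies away from 0, and the intervals of the 7 end-joining genes include 0, Nhej1's being the widest.

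Because the proteins of each pair act together, 4 ratios between genes were formed within each library, which removes library scaling. Ratios are of CPM per kb. Xrcc6 to Xrcc5 was 1.07, 0.997 and 1.08 in WT and 0.967, 0.952 and 1.03 in the labelled libraries, near equal amounts throughout (log2 difference -0.10, exact two-sided permutation p = 0.2). Xrcc4 to Lig4 was 0.872, 0.945 and 0.914 in WT and 1.04, 0.840 and 0.985 in the labelled libraries (0.06, exact permutation p = 0.5). Nhej1 to Xrcc4 was 0.298, 0.437 and 0.356 in WT and 0.388, 0.449 and 0.506 in the labelled libraries (0.31, exact permutation p = 0.2). Those 3 ratios overlapped between the groups. Dclre1c to Prkdc, nuclease to kinase, was 0.339, 0.372 and 0.349 in WT and 0.430, 0.429 and 0.483 in the labelled libraries. It was higher in 3 of 3 labelled libraries than in any WT library (0.34), at exact permutation p = 0.1, the smallest possible, and none of the 4 passed after Benjamini-Hochberg adjustment (0.267 for 3 ratios and 0.5 for Xrcc4 to Lig4).

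**Figure D4:**
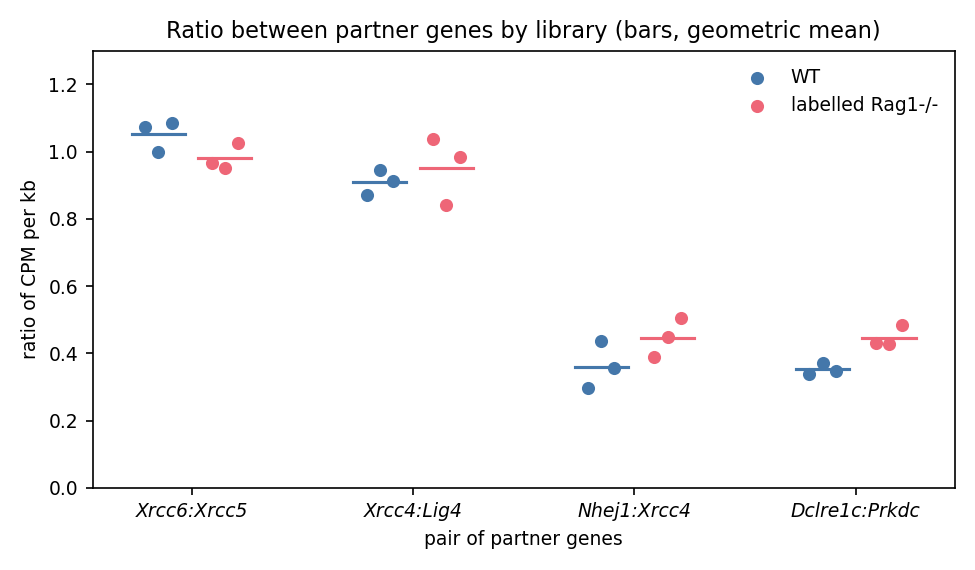
Ratio of CPM per kb between partner genes, with 1 point per library (blue, WT; red, labelled Rag1-/-) and a bar at the geometric mean. Xrcc6 to Xrcc5 and Xrcc4 to Lig4 lie near 1, and only for Dclre1c to Prkdc do the groups not overlap, at 0.339 to 0.372 and 0.429 to 0.483.

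The wider repair network was described with 6 lists of 75 genes, of which 72 were in the table and all 72 were tested. None had an adjusted p under 0.05 by limma-trend, 7 had an unadjusted p under 0.05 (9.72%, where 11.6% of all tested genes did), 1 higher and 6 lower, and the smallest adjusted p was 0.30. The median log2 fold change over the 72 was -0.05, the same as over all tested genes. That shift goes with the scaling: the median over all genes was -0.0097 with median-of-ratios rescaling and 0.0022 with quantile normalization. Of the 72, 2 were higher and 11 lower without overlap (where 3.98% and 14.4% of all tested genes were), and leaving out any library gave no call.

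Among 9 tested accessory end-joining and end-processing genes, none had an unadjusted p under 0.05 and the median log2 fold change was -0.03. Aptx, aprataxin, which removes stalled ligation intermediates, was the highest of them at 25 ± 0.856 CPM for WT and 23.7 ± 1.44 CPM for the labelled libraries (SD, n = 3). Paxx, a paralog of Xrcc4, was at 20.0 ± 1.92 and 20.6 ± 1.19 CPM. Tdp2, which frees ends from trapped topoisomerase, was at 9.98, 9.50 and 10.2 CPM in WT and at 9.39, 8.97 and 8.17 CPM in the labelled libraries, without overlap (log2 fold change -0.16, adjusted p = 0.474 by limma-trend).

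Among 16 tested genes of break sensing and signalling, 3 had an unadjusted p under 0.05, each with lower values in the labelled libraries, where 11.6% of all tested genes had such a p and lower values without overlap (14.4%) were more frequent than higher ones (3.98%). Trp53bp1, the chromatin reader that steers breaks to end joining, was the highest of the list, at 115, 115 and 113 CPM in WT and at 104, 100 and 103 CPM in the labelled libraries. The groups were clearly apart, but the difference was small (log2 fold change -0.16, standard error 0.04, adjusted p = 0.30 by limma-trend). Rif1, its effector, was at 24.7 ± 1.15 and 20.9 ± 1.33 CPM (SD, n = 3; log2 fold change -0.24, adjusted p = 0.331 by limma-trend). Mdc1, a mediator of the damage signal, was at 14.6 ± 0.540 and 13.1 ± 0.804 CPM (log2 fold change -0.16, adjusted p = 0.430 by limma-trend). Chek2, a checkpoint kinase, had the smallest p of the genes with a positive difference and stayed far from the threshold, at 1.00 ± 0.105 and 1.13 ± 0.0300 CPM.

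Of 9 tested genes of alternative end joining, the route used when Ku is missing, 1, Rbbp8, had an unadjusted p under 0.05, also near the share of 11.6% over all tested genes. Rbbp8 encodes CtIP, which starts end resection, and was at 2.57, 3.10 and 2.5 CPM in WT and at 3.49, 3.33 and 3.36 CPM in the labelled libraries, without overlap (log2 fold change 0.31, standard error 0.12, adjusted p = 0.398 by limma-trend). Fen1, a flap nuclease, was at 10.6 ± 0.753 and 9.55 ± 0.430 CPM, and Parp1, a break sensor, at 50.5 ± 1.78 and 47.9 ± 3.09 CPM. Fen1 was 1 of 2 genes of this list that were lower without overlap (14.4% of all tested genes were), the other being Lig3, a DNA ligase, which was named after its values were seen. Of 20 tested genes of homologous recombination, 2 had an unadjusted p under 0.05, near the 11.6% of all tested genes. Rpa1, which coats single-stranded DNA, was at 55.6 ± 1.02 and 51.5 ± 1.12 CPM (log2 fold change -0.11, adjusted p = 0.390 by limma-trend), and Brca2, a mediator of strand exchange, at 4.91 ± 0.184 and 4.15 ± 0.177 CPM (-0.24, adjusted p = 0.403 by limma-trend). Xrcc3, which acts in the same pathway, was higher without overlap at 19.5 ± 0.436 and 20.6 ± 0.141 CPM, with an adjusted p of 0.576 by limma-trend.

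The 8 proteins that bind or modify the recombinase and the 10 tested transcription factors of its locus included no gene that passed the adjusted test. No partner had an unadjusted p under 0.05. Hmgb1, the DNA-bending cofactor of the recombinase, averaged 41.8 ± 2.17 CPM for WT and 44.3 ± 1.44 CPM for the labelled libraries (SD, n = 3), and Ddb1 and Cul4a, members of a ubiquitin ligase, were at 215 ± 3.96 and 207 ± 4.79 CPM and at 43.9 ± 2.06 and 41.0 ± 1.71 CPM. Among the factors, Runx1 was the 1 of 10 with an unadjusted p under 0.05 (11.6% of all tested genes had one), at 1.27, 1.36 and 1.47 CPM in WT and 0.895, 1.08 and 0.997 CPM in the labelled libraries (log2 fold change -0.43, standard error 0.16, adjusted p = 0.382 by limma-trend). Pax5, a B lineage factor, was at 0.944, 0.582 and 0.690 CPM in WT and at 0.866, 0.855 and 1.14 CPM in the labelled libraries, overlapping. Satb1, a chromatin organiser that is also made in neurons, was the highest at 25.3 ± 1.90 and 26.8 ± 0.848 CPM.

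**Figure D5:**
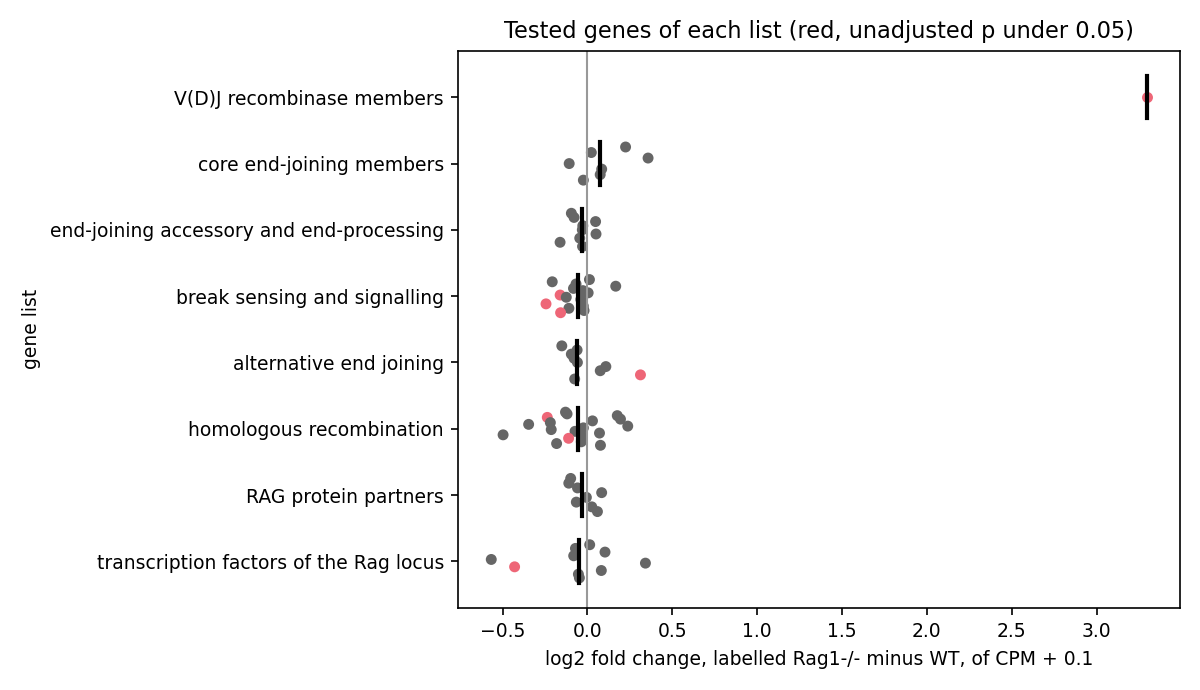
Log2 fold change (labelled Rag1-/- minus WT, of CPM + 0.1) of each tested gene by list, with a black bar at the list's median and red points for an unadjusted p under 0.05. Rag1 stands alone at 3.30, and the medians of the other 7 lists lie between -0.06 and 0.08.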

How the data were processed

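Reads were aligned by the authors to mm10 (STAR 2.5.3a) and counted in Partek Flow against RefSeq genes. The deposited values are CPM, gene counts scaled to the library size, to which 0.0001 was added. Use of strand is not given in the sources used here. Among low values, 85.1% to 86.5% were whole multiples of the value of 1 read, within 0.1 read, so no count test was run. Read numbers and intervals are estimates of counting error only.

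From the deposited CPM, log2(CPM + 0.1) was tested with limma-trend (limma 3.58.1, R 4.3.3) and Benjamini-Hochberg adjustment for genes at a mean of at least 0.1 CPM. The other 1296 genes were not tested. The test was checked on simulated data. Single values and ratios were compared with exact two-sided permutation tests over every split of the libraries (Python 3.11.15). The Poisson intervals used scipy 1.17.1. Lengths are those of the longest GENCODE M21 transcript with a RefSeq mRNA match. The named genes are all 10 recombination genes, the gene of smallest p in each direction and the highest gene of each list, any gene called, the 5 nearest deposited genes on each side of Rag1 and the 3 of nearest profile, of which 1 is not reported here. Rif1, Mdc1, Brca2, Il7r, Vpreb1 and other markers were named after their values were seen. The genes, lists and tests were chosen with earlier results of these data known.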

Additional observations from a re-analysis of the deposited data

How the results depend on the processing

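Rag1 was higher in the libraries labelled Rag1-/- under all 16 alternatives (log2 fold change 1.74 to 3.91). It passed in 11 and made the count of recombination genes called 1 in those. It did not pass, and the count was 0, without the limma trend (3.30, adjusted p = 0.131), with ordinary per-gene variance (3.30, adjusted p = 0.326) and without each labelled library. With libraries left out, its log2 fold change ranged from 2.99 to 3.58 and the count from 0 to 1. The 72 other repair, partner and factor genes gave 0 calls in every alternative. Same-numbered libraries share only a number (correlations of their deviations 0.0926, -0.22 and -0.0183). With the replicate block, Rag1 stayed at 3.30 (adjusted p = 0.0156 by limma-trend) and the count of all genes called fell from 8 to 3; other calls of the recombination genes did not change. Over all genes, calls numbered 134 with the term for high Xist, 24 without WT replicate 3, 9 at a pseudocount of 1, 6 with median-of-ratios rescaling or without WT replicate 1, 5 with quantile normalization or without replicate 2 labelled Rag1-/-, 4 at a pseudocount of 0.01, without a filter or at a mean of at least 1 CPM, 2 without the limma trend or without replicate 1 or 3 labelled Rag1-/-, and 0 with ordinary variance. Without WT replicate 3, every WT library left is one with high Xist, so group and Xist level cannot be told apart in that setting. The 4 partner ratios were recomputed only with each library left out in turn. Dclre1c to Prkdc ranged from 0.28 to 0.38, Nhej1 to Xrcc4 from 0.17 to 0.45, Xrcc4 to Lig4 from 0.00014, nearly 0, to 0.15 and Xrcc6 to Xrcc5 from -0.14 to -0.078.

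Some differences near 0 changed sign. With median-of-ratios rescaling and with quantile normalization the log2 fold changes were 0.018 and 0.030 for Xrcc6, 0.027 and 0.029 for Ttc17, 0.010 and 0.045 for 2810002D19Rik, 0.024 and 0.028 for Lrrc4c, 0.025 and 0.035 for B230118H07Rik, and 0.022 and 0.031 for Traf6. With the Xist term they were 0.081 for Xrcc6, -0.100 for Paxx, 0.011 for Lrrc4c and 0.103 for B230118H07Rik. With libraries left out the ranges were -0.076 to 0.028 for Xrcc6, -0.051 to 0.065 for Lig4, -0.011 to 0.122 for Paxx, -0.058 to 0.026 for Ttc17, -0.065 to 0.037 for 2810002D19Rik, -0.036 to 0.018 for Lrrc4c, -0.076 to 0.034 for B230118H07Rik, -0.067 to 0.028 for Traf6 and -0.036 to 0.174 for Prr5l. The cause was not tested.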
